A study of Mus musculus with 8 samples.

Results

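Expression in Ly6C-low monocytes (MCs) of streptozotocin-treated mice was compared with that in Ly6C-low MCs of control mice. It covered 16486 genes in 3 of the 8 libraries of the series, and a difference is the log2 value in the T1DM library less the average of 2 CT libraries. Wild-type C57/BL6 mice served as CT. T1DM was induced in C57/BL6 mice with streptozotocin (STZ), injected intraperitoneally at 50 mg/kg each day on 5 days in a row, when they were 8 weeks old. All mice were described as male, ate chow and were bled at 20 to 22 weeks. MCs were sorted from peripheral blood as CD11b+ Ly6G- cells with low Ly6C, and RNA of 5 mice was pooled for each group, so no value holds the spread between mice. The pools were sequenced in duplicate, and the difference between the CT libraries may therefore be technical only. T2DM libraries of db/db mice, which carry a homozygous leptin receptor mutation, enter the fit over all libraries, and the Ly6C-low one is given beside a few values. The sequencer was a NextSeq 500 for CT and a HiSeq 4000 for diabetic mice, and its effect and that of diabetes cannot be told apart.

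STZ enters pancreatic beta cells through a glucose transporter and kills them, which leaves mice with little insulin and high blood glucose. Ly6C-low MCs, the nonclassical MCs of the mouse, patrol the inner wall of blood vessels, depend on the transcription factor Nr4a1 and largely descend from Ly6C-high MCs. Ly6C-high MCs, the classical subset, carry the chemokine receptor Ccr2 and enter inflamed tissue.

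Of 16486 genes, 359 (2.18%) were more than 2-fold above both CT libraries in the T1DM library, and 479 (2.91%) were more than 2-fold below both. These counts have no test, because T1DM Ly6C-low MCs had 1 library. The median difference over all genes was 0.0032 on the log2 scale, and the 2 CT libraries themselves were more than 2-fold apart for 1651 genes. The median gap between the CT libraries was 0.25. limma, fitted over all 8 libraries with the lone T1DM library assumed to vary like the CT libraries, called 0 genes (0%) with an absolute log2FC above 1 and an adjusted p-value below 0.01. It gave an unadjusted p-value under 0.05 for 1485 genes, and its smallest adjusted p-value was 0.0644 (Lars2). Differences are therefore given below as higher or lower values, each beside the CT libraries.

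Most of the genes outside both CT libraries had low values. Among the 7024 genes with a mean log2 value under 3, 294 (4.19%) were higher and 446 (6.35%) lower. Among the 5152 genes with a mean of at least 5, only 15 (0.291%) were higher and 3 (0.0582%) lower. The CT libraries were more than 2-fold apart for 31.5% of genes with a mean under 1, for 11.6% between 1 and 3 and for 2.97% between 3 and 5. None of the 1444 genes with a mean of 7 or more had CT libraries that far apart. For some genes the lowest value was shared exactly by libraries of the CT set, or by libraries of the diabetic set, and it differed between the sets and from gene to gene. Of the higher genes, 58 stood at their lowest CT value in both CT libraries, which ran from -2.27 to 3.35. Of the lower genes, 54 stood at their lowest diabetic value in the T1DM library, which ran from -2.74 to -1.01. The size of such a difference, and the mean of such a gene, depend on that lowest value. After 1 was added on the linear scale, which damps low values, 166 genes were higher and 97 lower. Of 92 named genes outside both CT libraries, 24 were not outside both by 2-fold on that scale, among them Il10, Tnfsf4, Nectin2, Ccl17, Il12a, Csf1, Cish, Socs1, Cpa3, Prss34, Ltf and Lcn2.

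**Figure D1:**
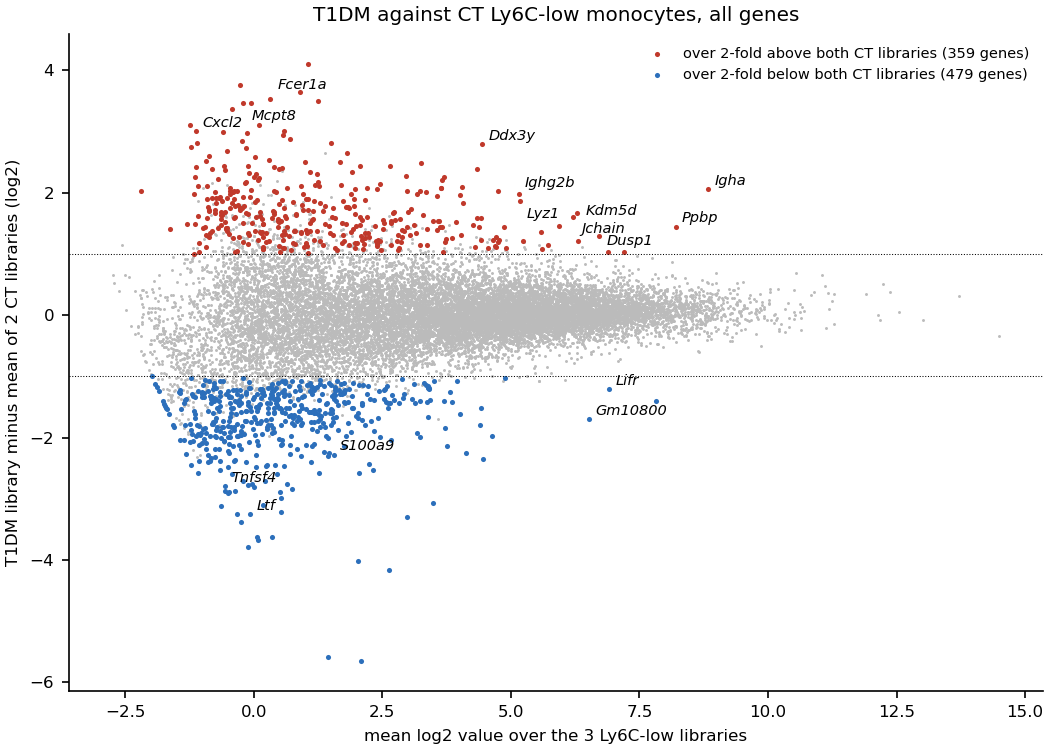
The log2 difference of the T1DM library from the mean of the 2 CT libraries (vertical axis) against the mean log2 value over the 3 Ly6C-low libraries (horizontal axis), 1 point per gene. Red and blue points are the 359 genes above and the 479 genes below both CT libraries by more than 2-fold, dotted lines mark 1 and -1, and most coloured points lie at low means.

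The T1DM library kept the markers of the labelled subset. Of 24 nonclassical MC genes, 20 were above both CT libraries and 4 below both, with a median difference of 0.31, and none passed 2-fold. Itgax, which encodes an integrin chain, was 6.97 and 6.84 in the CT libraries and 7.71 in the T1DM library. Nr4a1 was 7.80, 8.02 and 8.21. The same 24 genes had a median difference of -0.49 in Ly6C-high MCs of T1DM mice. Ly6c2, the gene of the sorting antigen, was 4.07 and 2.69 in the CT libraries and 3.20 in the T1DM library, against 8.61 in CT Ly6C-high replicate 1 and 8.72 in T1DM Ly6C-high MCs. Ccr2 was 7.67, 7.74 and 7.77. The 12 pan-monocyte genes had a median difference of -0.0032, and none passed 2-fold.

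Genes of class-switched antibodies were higher in the T1DM library. These are the heavy chains that B cells make after they have replaced IgM by another class, and plasma cells secrete them in quantity. Igha, the constant region of IgA (chr12:113256204-113260236, GRCm38.p6), was 8.06 and 8.25 in the CT libraries and 10.21 in the T1DM library, a difference of 2.06 or 4.16-fold. It was the largest difference upward among the 5152 genes with a mean of at least 5. Ighg2b was 4.65 and 4.32 in CT and 6.47 in T1DM. Ighg2c was 2.76, 3.08 and 5.12. The other IgG heavy chains stood in the same order, with the T1DM library on top and the CT libraries close to each other. Ighg1 was 2.67, 2.68 and 4.69, and Ighg3 was 4.23, 4.53 and 5.82. Jchain, which links the chains of secreted IgA and IgM, was 5.62, 5.73 and 7.28.

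The heavy chains of unswitched B cells did not follow. Ighm was 11.19 and 11.22 in the CT libraries and 11.00 in the T1DM library. Ighd was 7.19, 7.25 and 7.61. Of 20 immunoglobulin and plasma cell genes, 6 were more than 2-fold above both CT libraries, against 2.18% of all genes, and the list's median difference was 0.45. Xbp1 and Mzb1, which serve antibody secretion, differed by -0.01 and 0.42. None of 20 B cell markers passed 2-fold, with a median of 0.15. In Ly6C-high MCs, Ighg1, Ighg2b and Ighg2c were also more than 2-fold above both CT libraries, with differences of 3.68, 2.39 and 2.36, whereas Ighg3 differed by -1.49 and Igha by 0.70. B cell RNA was present in every Ly6C-low library, and the gate as described named CD11b, Ly6G and Ly6C only. In bulk RNA, more cells of a type and more RNA per cell cannot be told apart.

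Genes of basophils were at low values in the CT libraries and higher in the T1DM library. Basophils are rare blood granulocytes that bind IgE through the high-affinity receptor and store proteases in their granules. Fcer1a, the IgE-binding chain of that receptor, was -1.64 and -0.09 in the CT libraries and 2.66 in the T1DM library, a difference of 3.53. Mcpt8, a basophil protease, was -0.72, -1.99 and 2.10. Prss34, another basophil protease, was -1.89, 0.17 and 1.46. The CT libraries differed from each other by more than 1 for these genes. Mcpt8 in CT replicate 2 and Prss34 in CT replicate 1 stood at their lowest CT value, so the size of their differences depends on it. For Fcer1a and Mcpt8 the T1DM library stood farther from either CT library than these did from each other, and for Prss34 it did not. Cpa3, a granule carboxypeptidase, was 0.24, 0.01 and 1.5. Cd200r3, a receptor of the CD200 receptor family, was 2.10, 2.54 and 3.89.

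Of 9 basophil and mast cell markers measured, 5 were more than 2-fold above both CT libraries, against 2.18% of all genes. The share was 5.26% among genes with a mean under 1, where the median gene of this list lay. All 9 were above the CT mean, and the median difference was 1.57. Gata2, a transcription factor of this lineage, was 0.81, 2.52 and 3.41, and Ms4a2, the beta chain of the IgE receptor, was 2.38, 1.84 and 2.60, so neither passed 2-fold over both. Summed on the linear scale, the list stood at 18.5 and 24.8 in the CT libraries and 56.7 in the T1DM library. In Ly6C-high MCs the median of the list was -0.71. There Fcer1a was 0.04 and -0.20 in the CT libraries and -2.05 in the T1DM library, below both by more than 2-fold. Mcpt8 was -1.99, 0.28 and -2.56, and Cpa3 was 1.79, -2.49 and -2.41, so for neither was the T1DM library 2-fold below both. The T2DM Ly6C-low library, which is set against the same CT libraries, held Fcer1a at 3.18, Mcpt8 at 1.86, Cpa3 at 3.31, Cd200r3 at 5.21 and Prss34 at -0.17.

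Promoters of the 5 basophil genes are shown because these members were high together and GATA factors are known regulators of the lineage. Each runs 5′ to 3′ on the gene's strand from 250 bases before to 50 bases after the RefSeq start (GRCm38.p6). Capitals mark AGATAA or TGATAA on either strand, both of which contain GATAA. The windows are chr1:173227180-173227479 (minus strand) for Fcer1a, chr14:56085148-56085447 (minus) for Mcpt8, chr3:20242132-20242431 (minus) for Cpa3, chr17:25298144-25298443 (plus) for Prss34 and chr16:44943428-44943727 (plus) for Cd200r3.
Fcer1a: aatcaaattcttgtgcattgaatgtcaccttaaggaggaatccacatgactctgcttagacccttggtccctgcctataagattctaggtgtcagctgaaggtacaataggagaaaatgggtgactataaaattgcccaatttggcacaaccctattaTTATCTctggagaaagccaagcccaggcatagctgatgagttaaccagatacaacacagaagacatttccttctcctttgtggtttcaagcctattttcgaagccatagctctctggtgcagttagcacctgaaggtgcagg
Mcpt8: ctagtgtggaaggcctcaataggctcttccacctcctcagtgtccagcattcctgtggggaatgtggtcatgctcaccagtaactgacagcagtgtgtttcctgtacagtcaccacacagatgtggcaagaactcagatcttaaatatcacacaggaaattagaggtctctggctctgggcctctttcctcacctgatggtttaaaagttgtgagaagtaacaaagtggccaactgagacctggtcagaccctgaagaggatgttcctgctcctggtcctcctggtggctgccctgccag
Cpa3: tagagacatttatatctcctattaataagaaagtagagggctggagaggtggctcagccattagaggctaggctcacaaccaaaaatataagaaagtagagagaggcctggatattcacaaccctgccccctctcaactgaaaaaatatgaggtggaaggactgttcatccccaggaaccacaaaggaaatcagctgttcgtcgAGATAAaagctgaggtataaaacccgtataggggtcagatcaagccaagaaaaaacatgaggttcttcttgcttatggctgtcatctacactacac
Prss34: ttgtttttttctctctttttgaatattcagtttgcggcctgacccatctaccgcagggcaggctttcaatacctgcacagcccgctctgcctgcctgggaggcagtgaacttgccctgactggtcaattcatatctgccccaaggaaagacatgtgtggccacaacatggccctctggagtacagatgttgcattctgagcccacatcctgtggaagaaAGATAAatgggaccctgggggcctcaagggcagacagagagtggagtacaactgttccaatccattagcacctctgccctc
Cd200r3: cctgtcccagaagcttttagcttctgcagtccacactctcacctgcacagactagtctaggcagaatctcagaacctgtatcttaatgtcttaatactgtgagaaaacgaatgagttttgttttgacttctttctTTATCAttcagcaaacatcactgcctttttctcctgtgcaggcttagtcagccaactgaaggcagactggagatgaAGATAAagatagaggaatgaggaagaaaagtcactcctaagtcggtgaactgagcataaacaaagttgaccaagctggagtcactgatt

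The letters begin at -92 in Fcer1a, -46 in Cpa3, -31 in Prss34 and -115 and -39 in Cd200r3, counted from the gene start. Mcpt8 has no match in this window. Ms4a2 and Gata2 of the same list, which did not pass 2-fold, were searched too. Ms4a2 has 3 matches, and neither RefSeq window of Gata2 has any. Of 32851 RefSeq promoters of the same length, 18.6% hold a match. A match is a description of the sequence only.

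Platelet, NK cell and erythroid genes stood above CT as whole lists, with few members past 2-fold. All 16 platelet genes were above the CT mean, 15 of them above both CT libraries, with a median difference of 0.69. Ppbp, a platelet chemokine precursor, was 7.70 and 7.75 in the CT libraries and 9.17 in the T1DM library. Tubb1, the tubulin of platelets, was 4.11, 4.27 and 5.28. In all, 3 of the 16 passed 2-fold over both, against 2.18% of all genes. Pf4, a defining platelet chemokine, was 5.46, 5.49 and 6.18. The linear sum of the list was 854 and 832 in CT and 1584 in T1DM. The list had a like median of 0.66 in Ly6C-high MCs of T1DM mice.

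All 20 NK cell genes were above the CT mean and 19 above both CT libraries, with a median of 0.53. Klrc2 was 5.38, 5.32 and 6.50, and Klra8 was 4.35, 4.36 and 5.59. Both encode NK cell receptors, and they were the 2 of 20 past 2-fold, against 2.18% of all genes. Klra8 shares 55.0% and Klrc2 21.6% of the 31-base sequences with other genes, so their values are uncertain. Ncr1, a defining NK cell receptor, was 6.13, 6.14 and 6.70. The linear sum was 1197 and 1190 in CT and 1785 in T1DM. The 11 erythroid genes were all above both CT libraries, with differences between 0.25 and 0.60 and none past 2-fold. In Ly6C-high MCs of T1DM mice the NK cell list had a median of 0.44 and the erythroid list one of 0.55. The part of platelets, NK cells or red cells in other differences was not tested.

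**Figure D2:**
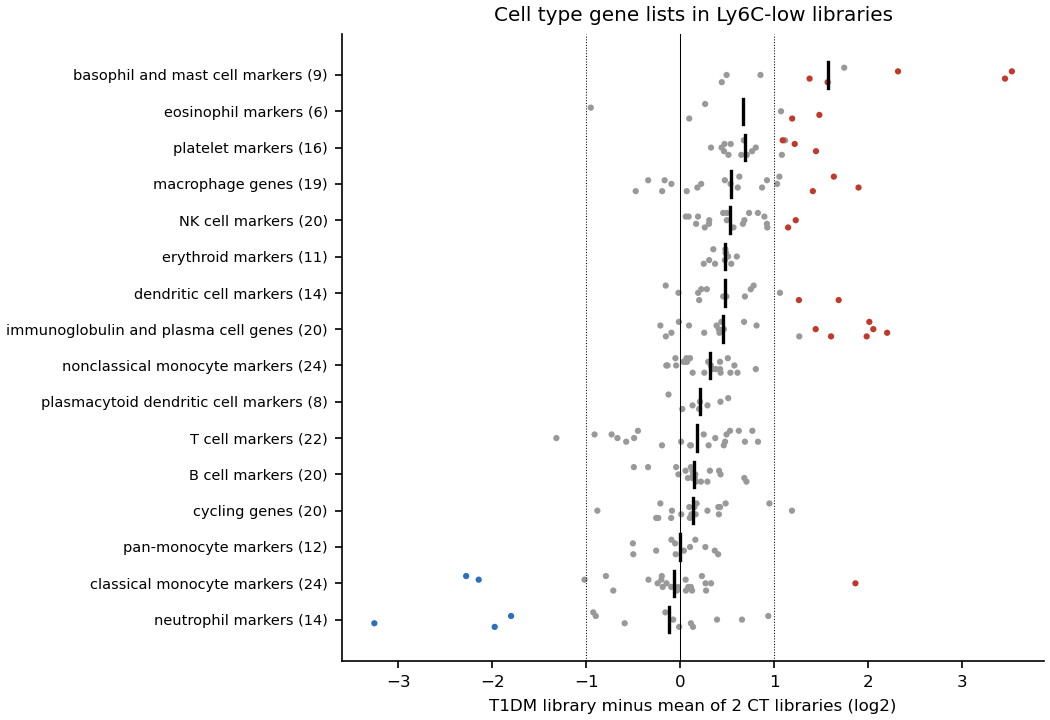
The log2 difference of the T1DM library from the CT mean (horizontal axis) for the members of 16 cell type gene lists, with the number of genes measured in parentheses. Each point is a gene, red or blue where it lay more than 2-fold above or below both CT libraries, black bars are medians, and the highest median, 1.57, is that of basophil and mast cell markers.

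Smaller numbers of genes from other myeloid lists were higher. Ccr3, the eotaxin receptor of eosinophils and basophils, was 1.65 and 0.96 in CT and 2.79 in T1DM, and Alox15, a lipoxygenase, was 3.26, 3.37 and 4.51. They were 2 of 6 eosinophil genes measured, against 2.18% of all genes and 3.16% of those with a mean between 1 and 3. The median gene of the list lay in that range. Siglecf, which defines eosinophils in mice, was 1.93, -0.51 and 0.81. Clec9a, a receptor of cross-presenting dendritic cells, was 3.18, 3.69 and 4.70. Mgl2, a lectin of dendritic cells and macrophages, was 2.55, 2.30 and 4.12. These were 2 of 14 dendritic cell genes, against 2.18% of all genes.

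C1qb and C1qc encode chains of C1q, which starts the classical complement pathway and is made mainly by macrophages. C1qb was 2.81 and 2.68 in the CT libraries and 4.38 in the T1DM library. C1qc was 1.98, 2.11 and 3.46. The third chain gene, C1qa, was 0.60, 0.83 and 1.64, which was above both CT libraries by less than 2-fold. Timd4, a phosphatidylserine receptor with which macrophages take up dying cells, was -0.01, 0.77 and 2.28. C1qb, C1qc and Timd4 were 3 of 19 macrophage genes past 2-fold, against 2.18% of all genes. The share was 3.16% with a mean between 1 and 3, where the median macrophage gene lay. C1qb and C1qc were 2 of 20 complement and Fc receptor genes, also against 2.18% of all genes. In Ly6C-high MCs C1qb differed by -0.74, C1qc by -0.16 and Timd4 by -1.44.

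Several granule genes and the calprotectin genes were lower. S100a8 and S100a9 encode the subunits of calprotectin, a protein abundant in neutrophils and classical MCs. S100a9 was 2.44 and 2.19 in the CT libraries and 0.04 in the T1DM library. S100a8 was 1.61, 2.07 and -0.30. Ltf, which encodes the granule protein lactoferrin, was 0.20, 1.83 and -2.24, and Lcn2, an iron-scavenging granule protein, was 1.24, 2.89 and 0.09. Slpi, a protease inhibitor, was 3.35, 3.36 and 2.00. For each of these genes the T1DM library was below both CT libraries, with the CT libraries 1.62 apart for Ltf and 1.65 apart for Lcn2. Wfdc21 was -0.74 and -0.73 in CT and at its lowest diabetic value in T1DM.

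Ltf, Lcn2 and Wfdc21 were the 3 of 14 neutrophil genes past 2-fold, and the list's median was -0.12. Of the 14, 5 were above both CT libraries and 6 below both. The linear sum of the list was 175 and 161 in CT and 185 in T1DM, so the list as a whole was not lower. Over all genes 2.91% were lower, and 9.21% of genes with a mean under 1, where the median gene of this list lay. S100a8 and S100a9 were the 2 of 24 classical MC genes that were lower, against 2.91% of all genes, with a list median of -0.06. In CT Ly6C-high MCs S100a8 was 1.14 and 1.15 and S100a9 0.62 and 1.23. These values were below those of CT Ly6C-low MCs, so neither gene marked the classical subset in CT mice here. Of 17 granule and lysozyme genes, 5 were lower and 1 was higher. Their linear sum was 6300 and 6203 in CT and 6600 in T1DM. The share lower was 2.91% of all genes, and 3.60% with a mean between 1 and 3, where the list's median gene lay. The higher one was Lyz1, a lysozyme, at 4.60 and 4.53 in CT and 6.43 in T1DM. It shares 34.2% of its 31-base sequences with Lyz2, which was 12.55, 12.52 and 12.60, so that assignment of reads between the 2 genes is uncertain. In Ly6C-high MCs the 17 genes had a median difference of 0.22, with 7 higher and 2 lower than both CT libraries. S100a8, S100a9, Ltf and Slpi were among the higher ones there, whereas Lcn2 and Wfdc21 differed by -0.42 and -0.39.

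**Figure D3:**
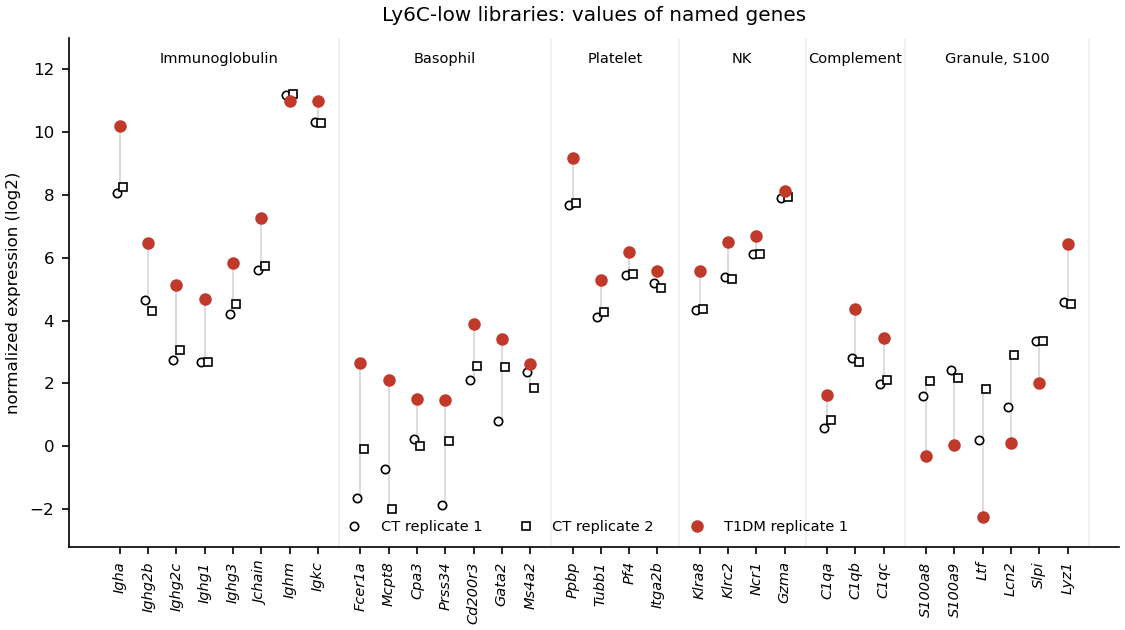
Deposited log2 values (vertical axis) of named genes in the 3 Ly6C-low libraries, open symbols for the 2 CT libraries and a red circle for the T1DM library, grouped by cell type or function. The T1DM library is above both CT libraries for Igha and the IgG genes and below both for S100a8, S100a9, Ltf, Lcn2 and Slpi, while Ighm lies close to CT.

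Cytokine ligands are the messages that MCs send to other cells. Of 50 measured, 5 were higher and 2 lower than both CT libraries by more than 2-fold, with a median difference of 0.22. Over all genes 2.18% were higher and 2.91% lower, and these shares were 3.16% and 3.60% among genes with a mean between 1 and 3, where the median ligand lay. Ccl22, a chemokine that attracts regulatory and Th2 T cells through Ccr4, was 0.74 and 1.74 in CT and 3.01 in T1DM. Ccl17, which binds the same receptor, was -1.5, -0.78 and 0.33. Il12a, the p35 chain of IL-12, was 0.44, 1.54 and 2.59. Csf1, the growth factor on which MCs depend, was 2.60, 2.33 and 3.65. Cxcl2, a neutrophil chemokine, stood at its lowest CT value in both CT libraries and at 0.89 in T1DM.

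The lower ligands were Il10 and Tnfsf4. Il10, an anti-inflammatory cytokine, was 0.57 and -0.48 in CT and -2.14 in T1DM. Tnfsf4, which encodes OX40 ligand, a costimulator of T cells, was 0.45 and 0.30 in CT and at its lowest diabetic value in T1DM, so that no fold is given. Chemokines with high values differed little. Ccl6 was 6.96, 6.81 and 7.44, which was above both CT libraries by less than 2-fold, and Ccl9 was 6.89, 7.06 and 7.27. Il15, which sustains NK cells and memory T cells, was 2.03, 1.69 and 3.00, and Il7, a survival factor of lymphocytes, was -0.26, 0.31 and 1.13. Both were above both CT libraries and missed 2-fold over the nearer one. Cxcl9 and Cxcl10, interferon-induced chemokines, had CT libraries 3.14 and 2.82 apart, and the T1DM values of -0.13 and 0.02 lay between them.

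Of 57 cytokine and chemokine receptors, 1 was higher and 2 lower, near the shares of all genes (2.18% and 2.91%). Lifr, the receptor for leukemia inhibitory factor, was 7.25 and 7.37 in CT and 6.11 in T1DM, a difference of -1.20. It was 1 of only 3 genes with a mean of at least 5 that were lower. Ccr1, a chemokine receptor of MCs and neutrophils, was 3.64, 3.83 and 2.59. The higher receptor was Ccr3, given above. In Ly6C-high MCs Lifr differed by -0.10 and Ccr1 by -0.32.

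Checkpoint and costimulatory molecules set how strongly T cells and NK cells respond. Of 24 receptors of this kind, 3 were higher, against 2.18% of all genes. Cd28, the main costimulatory receptor of T cells, was 2.86, 3.43 and 4.59. Cd226, an activating receptor of NK and T cells, was 5.16, 5.32 and 6.32, and Timd4 is given above. Of 21 checkpoint ligands, Tnfsf4 and Nectin2 were lower, against 2.91% of all genes. Nectin2, which binds Cd226, was -0.09 and -0.82 in CT and -2.43 in T1DM. Cd28 is carried by T cells, whose 22 markers had a median difference of 0.18, with none past 2-fold.

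**Figure D4:**
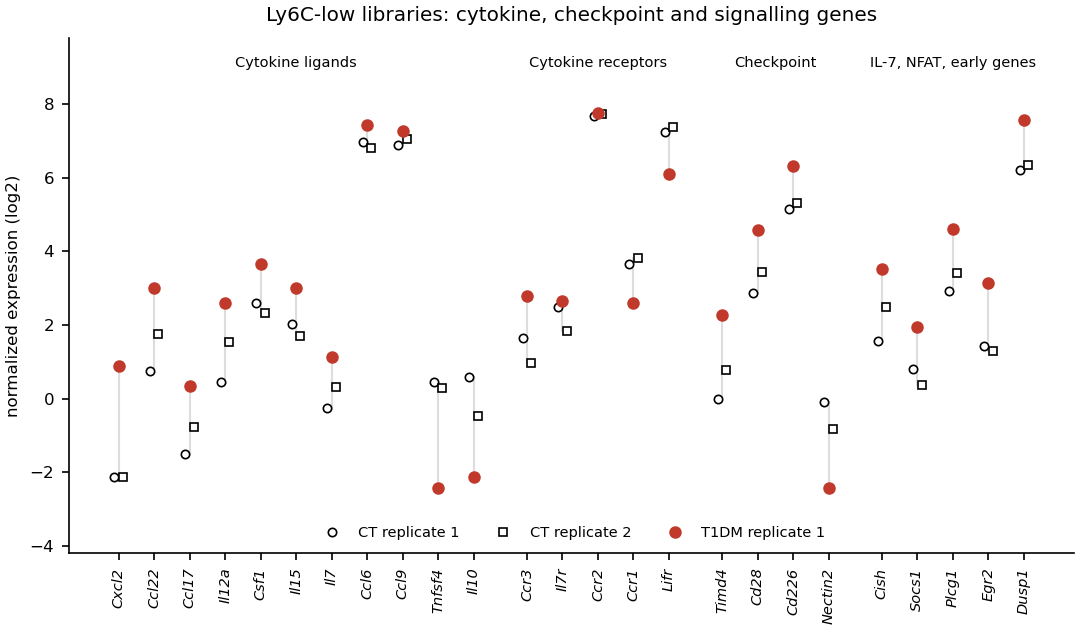
Deposited log2 values (vertical axis) of cytokine, receptor, checkpoint and signaling genes in the 3 Ly6C-low libraries, open symbols for the 2 CT libraries and a red circle for the T1DM library. Lifr, Ccr1, Il10, Tnfsf4 and Nectin2 are lower in T1DM, and Ccr2 is level with CT.

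In 3 lists of genes downstream of cytokine and antigen receptors, 2 members each were higher, against 2.18% of all genes. Cish and Socs1, both inhibitors of JAK-STAT signaling that STAT5 induces, were the 2 of 25 IL-7 signaling genes past 2-fold. Cish was 1.57 and 2.49 in CT and 3.53 in T1DM, and Socs1 was 0.80, 0.37 and 1.94. Il7r, the receptor itself, was 2.50, 1.83 and 2.64. Plcg1, a phospholipase that raises calcium, was 2.93, 3.41 and 4.61. Egr2, a transcription factor induced by calcium and NFAT, was 1.42, 1.29 and 3.13. Plcg1 and Egr2 were 2 of 27 calcium and NFAT genes. Dusp1, a phosphatase that switches off MAP kinases, was 6.20 and 6.35 in CT and 7.56 in T1DM. It was 1 of 2 among 27 AP-1 and immediate-early genes, the other being Egr2. Fos was 4.25, 3.39 and 4.34 and Jun 4.91, 4.97 and 5.02. In Ly6C-high MCs Dusp1 differed by 0.86 and Egr2 by -2.21.

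Of 13 heat shock genes, Hspa1a and Hspa1b were higher, against 2.18% of all genes. These neighboring genes encode inducible HSP70 chaperones. Hspa1a was 2.26 and 2.19 in CT and 3.77 in T1DM, and Hspa1b was 2.07, 2.03 and 3.27. The other 11 did not pass 2-fold, and the list's median was -0.05. Hspa1a shares 63.8% of its 31-base sequences with Hspa1b, so the division of reads between them is uncertain. The promoters of this pair are shown because both genes were high and are near copies, again from 250 bases before to 50 after the start (GRCm38.p6), at chr17:34972107-34972406 and chr17:34959189-34959488, both on the minus strand. Capitals mark a heat shock element core, GAANNTTC or TTCNNGAA.
Hspa1a: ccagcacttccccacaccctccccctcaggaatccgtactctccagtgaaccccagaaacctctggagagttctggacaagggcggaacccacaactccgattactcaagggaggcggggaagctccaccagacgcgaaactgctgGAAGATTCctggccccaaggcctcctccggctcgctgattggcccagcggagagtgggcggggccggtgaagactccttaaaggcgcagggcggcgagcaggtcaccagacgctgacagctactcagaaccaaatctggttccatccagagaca
Hspa1b: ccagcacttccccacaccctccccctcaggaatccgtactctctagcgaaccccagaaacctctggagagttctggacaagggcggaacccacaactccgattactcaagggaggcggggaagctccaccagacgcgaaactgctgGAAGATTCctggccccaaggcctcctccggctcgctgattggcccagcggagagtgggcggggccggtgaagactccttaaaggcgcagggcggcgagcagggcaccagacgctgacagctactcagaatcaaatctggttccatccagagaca

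Each promoter has 1 match, which begins at -104. The 2 windows are identical at 296 of 300 positions, and 15.1% of 32851 promoters hold such a match. In the T2DM Ly6C-low library Hspa1a was at -1.09 and Hspa1b at -0.26.

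In 4 other lists a single member was named outside both CT libraries, too few to set against the 2.18% higher and 2.91% lower of all genes. Igf1, a growth factor, was 0.87 and 1.79 in CT and -0.35 in T1DM, and was 1 of 16 insulin and IGF signaling genes. Oasl1, an interferon-induced gene, was 2.14, 1.41 and 0.22, and was 1 of 30 interferon-stimulated genes, whose median was 0.07. The 32 cholesterol and lipid genes had a median of 0.09. Ctsk, a collagen-degrading protease, was -1.85, -0.64 and 0.62, and was 1 of 24 matrix and protease genes. Ahrr, a repressor of the aryl hydrocarbon receptor, was 2.16, 2.41 and 3.43, and was 1 of 22 xenobiotic and steroid metabolism genes.

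No gene passed 2-fold over both CT libraries in several lists that the disease model makes of interest. Over all genes 2.18% were higher and 2.91% lower. These shares were 0.291% and 0.0582% with a mean of at least 5, where the median gene of most of these lists lay. The absence of such genes therefore says little about these lists. MHC class II genes, which present antigen to CD4 T cells, had a median of 0.35, with 9 of 11 above both CT libraries. Cd74 was 11.78, 11.79 and 12.14, and H2-Ab1 was 9.95, 9.90 and 10.30. The median was 0.11 for 20 MHC class I genes, 0.05 for 28 glucose-responsive and glycolysis genes and -0.10 for 23 oxidative stress genes. It was 0.06 for 22 NF-kB genes, 0.03 for 23 pattern recognition receptors and 0.20 for 22 integrins and adhesion genes. Cycling genes and plasmacytoid dendritic cell markers had medians of 0.14 and 0.21. Over all 38 lists, 41 of 722 genes (5.68%) were higher and 13 (1.80%) lower, against 2.18% and 2.91% of all genes. The lists were chosen with earlier results of these data known, so these shares are a description only.

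Genes outside the lists with a mean of at least 5 were few, and the T1DM library lay well apart from 2 close CT libraries for most. Phkg1, a catalytic subunit of phosphorylase kinase, was 5.50 and 5.40 in CT and 6.90 in T1DM. Cald1, an actin-binding protein, was 4.97, 5.28 and 6.49. Scnn1a, a subunit of the epithelial sodium channel, was 4.69, 4.96 and 6.04. Dnah12, a dynein heavy chain, was 5.95, 5.84 and 7.11. Hpgd, which inactivates prostaglandins, was 6.53, 6.56 and 7.59, and Alox12, the platelet-type lipoxygenase, was 6.81, 6.89 and 7.89. Neither passed 2-fold over both CT libraries after median centring or quantile normalization.

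With a mean between 3 and 5, the larger differences upward in coding genes without many shared sequences included Dlg2, Skint3, Fbxo40, Dnah2, Nckap1 and Ncapd2. The CT libraries were themselves 1.40 apart for Fbxo40 and 1.08 apart for Dnah2. Skint3 was also more than 2-fold above both CT libraries in Ly6C-high MCs, with a difference of 1.26. Dlg2, a scaffold protein, was 3.06 and 2.84 in CT and 5.20 in T1DM. Nckap1, a part of the WAVE complex that builds actin, was 3.14, 2.69 and 4.87. Ncapd2, a condensin subunit, was 3.44, 3.48 and 5.28. Rcan3, an inhibitor of calcineurin, was among the lower genes at 4.69, 4.40 and 2.93. Rgmb, a bone morphogenetic protein co-receptor, was 4.52, 4.15 and 2.91, and Cacna2d4, a calcium channel subunit, was 3.69, 3.99 and 2.43.

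Many of the lower entries were predicted genes or pseudogenes. Pseudogenes made up 18.0% of the lower and 12% of the higher genes, against 6.29% of all. Gm10800 was 7.08 and 7.09 in CT and 5.38 in T1DM, and Gm10719, Gm10721, Gm10717, Gm10801, Gm21738 and Gm10718 were lower by between 1.52 and 2.35. These predicted genes share between 36.2% and 89.3% of their 31-base sequences with other transcripts, in part with each other. Rpl10a-ps1 was 8.53, 8.05 and 6.89 and shares all of its 31-base sequences with Rpl10a. Gm10359 and Gm12671 were both higher, and all their sequences occur in Gapdh. Kallisto divides reads among such copies by estimate, so these entries are uncertain.

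Of 4 Y-linked genes examined, 3 were more than 2-fold higher in the T1DM library, although CT mice were described as male too. Ddx3y was 3.37 and 3.64 in CT and 6.30 in T1DM Ly6C-low MCs, and Kdm5d was 5.66, 5.81 and 7.41. Eif2s3y was 4.31, 2.77 and 5.93, and Uty, the other, was 4.36, 3.76 and 5.03. The first 3 differed by 2.70, 1.89 and 3.64 in Ly6C-high MCs. The mean of the 4 diabetic libraries was above that of the 4 CT libraries by 2.65 for Ddx3y, 1.5 for Kdm5d and 2.91 for Eif2s3y. Such a difference runs with the sequencer and the group, and its source was not tested.

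Ly6C-high MCs of the same T1DM mice were set against their own CT libraries to see which differences belonged to the Ly6C-low subset. There, 462 genes (2.80%) were more than 2-fold above and 425 (2.58%) more than 2-fold below both CT Ly6C-high libraries. Of the 359 higher genes of Ly6C-low MCs, 28 were also higher in Ly6C-high MCs, which is 7.80% of the former and 6.06% of the latter list. Another 61 were lower there, 17.0% of the higher list. Of the 479 lower genes, 29 were also lower in Ly6C-high MCs, 6.05% and 6.82% of the lists, and 77 were higher there, 16.1% of the lower list. The genes higher in Ly6C-low MCs had a median difference of -0.41 in Ly6C-high MCs, and the lower genes had one of 0.33, against 0.02 over all genes.

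The difference in Ly6C-high MCs was subtracted from that in Ly6C-low MCs for each gene. Whether the sequencer acted equally on both subsets was not tested. The value after subtraction was 1.36 for Igha, 1.01 for Jchain, 5.50 for Fcer1a, 5.16 for Mcpt8, -1.10 for Lifr and -4.91 for S100a9. Mcpt8 stood at its lowest CT value in CT Ly6C-low replicate 2 and CT Ly6C-high replicate 1, so the size of its 5.16 depends on that value. Among named genes past 2-fold in both subsets, it was 0.09 for Ddx3y, -0.22 for Kdm5d, -0.40 for Ighg2b and -0.15 for Ighg2c, but -1.25 for Eif2s3y and -1.66 for Ighg1. limma called 0 genes in this difference between subsets, with 1810 at an unadjusted p-value under 0.05 and a smallest adjusted p-value of 0.164. Thus none of these differences was shown by a test to be particular to Ly6C-low MCs.

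**Figure D5:**
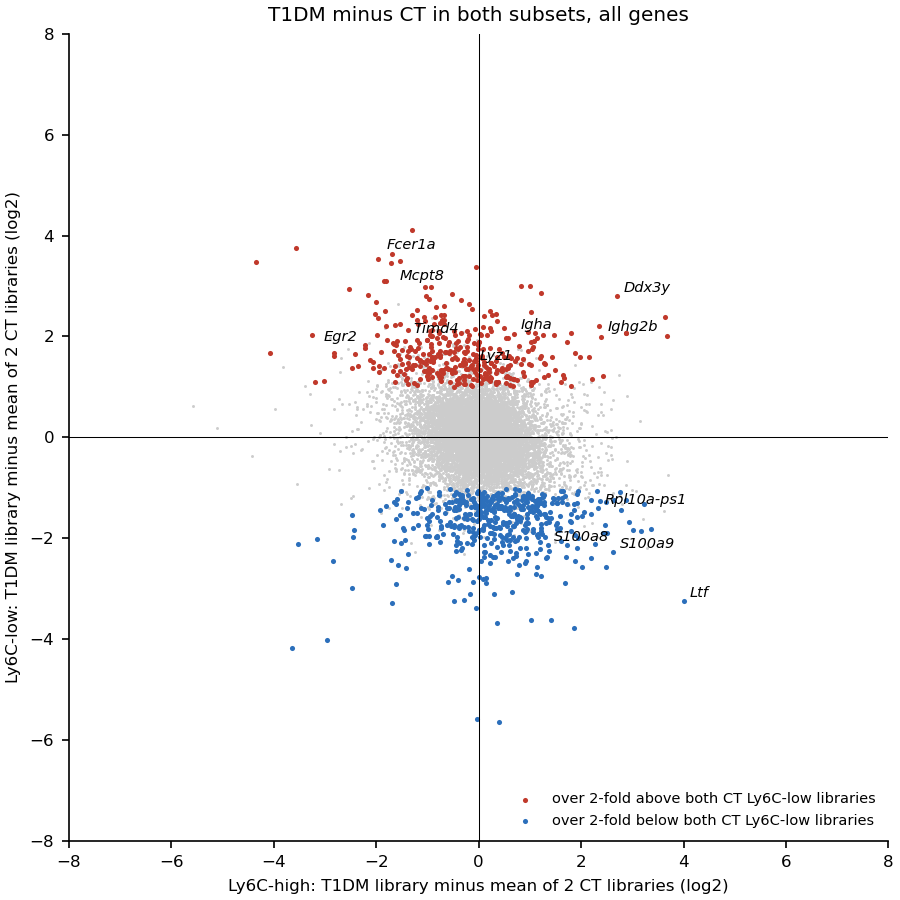
The log2 difference of T1DM from the CT mean in Ly6C-low MCs (vertical axis) against that in Ly6C-high MCs (horizontal axis), 1 point per gene, with the genes more than 2-fold above (red) or below (blue) both CT Ly6C-low libraries. S100a8, S100a9 and Ltf lie at lower right, Fcer1a and Mcpt8 at upper left, and Ddx3y and Ighg2b at upper right.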

How the data were processed

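RNA-Seq of Ly6C-low and Ly6C-high MCs was analyzed from 8 libraries, 2 for each CT subset and 1 for each diabetic subset. Replicates the study describes beyond these were not analysed here. Per the labels, RNA of 5 mice per group was pooled, and reads were assigned to transcripts with Kallisto (version 0.45). Gene values were then made with tximport (version 1.12.3). The submitters' processing notes name mm10. The authors deposited log2 values for 16486 gene symbols, and how libraries were scaled, filtered or adjusted between sequencers is not given in the sources used here. The values hold no counts, so the depth behind a value is unknown and no counting error can be given. The only measure of precision is the gap between the CT libraries. A spreadsheet had turned 21 entries into dates, which were counted but not named.

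A gene was called higher or lower when the T1DM value lay more than 1 on the log2 scale outside both CT values. limma (version 3.58.1, lmFit and eBayes with trend, 1 mean per group, 2 residual degrees of freedom, in R 4.3.3) was fitted to all 8 libraries with Benjamini-Hochberg adjustment, and a call needed an absolute log2FC above 1 with an adjusted p-value below 0.01, the limits of the study's methods. Other steps used Python (version 3.11.15), pandas (2.3.3), numpy (2.4.6) and matplotlib (3.10.9).

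Genes named are the 15 largest differences in each direction with a mean of at least 5 and with a mean of 3 to 5, members of 38 gene lists and genes that the study names for these cells. Lars2, the Y-linked genes, and Gm5641 and Ly6c1 in the closing section were chosen after their values were seen. A few genes that meet the rule are not reported here. The gene lists, the comparison and the rules were chosen with earlier results of these data known. Promoters, gene positions and gene types came from RefSeq (GRCm38.p6), and sequences of 31 bases shared between genes were computed from GENCODE M21 transcripts. Alternatives were a low-value filter, adding 1 on the linear scale, quantile normalization, median centring, other fold limits, leaving out each CT library, limma without trend, with the replicate number as a block or with fewer libraries, and, added after seeing the data, leaving out genes at the lowest value.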

Additional observations from a re-analysis of the deposited data

Results flagged for a closer look

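For 14 genes named here or held in the lists, the T1DM library lay more than 2-fold outside both CT libraries in opposite directions in Ly6C-low and Ly6C-high MCs. The value given is the difference in Ly6C-low MCs minus that in Ly6C-high MCs, on the log2 scale. With 1 T1DM library per subset, the permutation of labels could not be used, and limma's test of this difference over all 8 libraries called none of them. Its adjusted p-values for these genes ran from 0.225 to 0.409.

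Higher in Ly6C-low and lower in Ly6C-high MCs were Fcer1a (5.50), Egr2 (3.99), Ncapd2 (3.43), Timd4 (3.34), Ighg3 (2.94), Plcg1 (2.72) and Socs1 (2.66). Egr2, for example, was 1.42 and 1.29 in the CT and 3.13 in the T1DM Ly6C-low library, against 2.04 and 2.08 in the CT and -0.15 in the T1DM Ly6C-high library.

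Lower in Ly6C-low and higher in Ly6C-high MCs were Ltf (-7.26), S100a9 (-4.91), Rpl10a-ps1 (-3.74), S100a8 (-3.49), Oasl1 (-3.14), Igf1 (-3.06) and Slpi (-2.48). In Ly6C-high MCs, S100a9 was 0.62 and 1.23 for CT and 3.55 for T1DM. For Ltf the CT libraries of each subset were more than 1 apart. Rpl10a-ps1 shares all of its 31-base sequences with Rpl10a.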

How the results depend on the processing

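The counts of genes past 2-fold depended on the level and the CT library. The 359 higher and 479 lower genes became 132 and 154 when genes whose 8 libraries averaged under 1 were removed, and 166 and 97 after adding 1 on the linear scale, so that higher genes outnumbered lower ones, as they also did under quantile normalization. They became 957 and 1145 at a limit of 1.5-fold, 53 and 61 at a limit of 4-fold, and 665 and 788 against the CT mean alone. Without either CT replicate, between 870 and 921 genes were higher and between 983 and 987 lower. Quantile normalization gave 440 and 413, median centring 318 and 523, and leaving out genes at the lowest value 301 and 407. Of listed genes, 41 were higher and 13 lower. With the filter these were 30 and 7, and without either CT replicate between 66 and 69 were higher and 24 lower. The cause was not tested, beyond the smaller number of genes or libraries in the filtered and reduced settings.

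limma called 0 genes in T1DM against CT Ly6C-low MCs and 0 in the difference between subsets under every alternative run. The smallest adjusted p-values passed 0.01 with the low-value filter (0.000336 and 0.00251) and under quantile normalization (0.005 and 0.000963), where those genes missed the fold limit. CT libraries of both subsets share replicate numbers, but their deviations were unrelated (Pearson's r of 0.0089 across genes). Independent technical differences would give such a value with or without pairing, so it cannot show whether the numbers pair the samples. With the replicate number as a block, 0 genes were called in both contrasts, with 958 and 1280 at an unadjusted p-value under 0.05. Of 600 recomputed differences of 103 named genes, 501 moved by no more than the spread of the CT libraries and 99 by more, and 0 of those called changed sign. Leaving out a CT library always moves a difference by no more than that spread, and the filter moves none. Neither setting could change the sign of a called gene, so these settings add no support to the 501 or the 0. Of 92 named genes outside both CT libraries, 24 no longer were by 2-fold after adding 1 on the linear scale. Besides those named above, they included Ccr1, Ccr3, Cd226, Alox12, Wfdc21, Clec9a, Tubb1, Oasl1, Igf1, Ctsk and Ahrr. Quantile normalization lost 3 (Cd226, Hpgd, Alox12) and median centring 8, and the filter removed 17 from the table. Values hold no counts, so what depth limits cannot be given.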

Other observations

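The largest difference downward in the T1DM Ly6C-low library was in a pseudogene, Gm5641, at 4.04 and 3.89 in the CT libraries and -1.68 in the T1DM library, while it differed by 0.40 in Ly6C-high MCs. Gm5641 shares all of its 31-base sequences with Hnrnpa3, so the assignment of reads to it, and this difference, are uncertain. Ly6c1, the neighbor and near copy of Ly6c2, was 1.71 and 1.43 in CT and 0.52 in T1DM.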
